A study of Homo sapiens with 28 samples.

Results

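The class III receptor tyrosine kinase genes Flt3, Kit, Csf1r, Pdgfra and Pdgfrb and the ligand genes Flt3l, Kitl and Csf1 were examined in mouse bone marrow. These 8 members, 5 receptors and 3 ligands, were chosen by name from 21883 protein-coding genes. The measurement was chromatin immunoprecipitation sequencing of H3K27ac, a histone acetylation of active promoters and enhancers, and of H3K27me3, the methylation that EZH2 writes at silenced genes. For each mouse and mark, the length of the gene interval plus 5 kb on either side that lay under called peaks was taken, together with the peaks farther out, up to 200 kb from the gene.

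The animals were 5 mice named DKOITD in the labels and 3 named WT. Both groups were C57BL/6 and both carried the floxed alleles Ezh2(fl/fl) and Runx1(fl/fl). DKOITD mice also had Rag1(Cre/+) and Flt3(ITD/+), while WT mice were Rag1(+/+) and Flt3(+/+). Cre in this model comes from the Rag1 locus, which is active in early lymphoid cells, so other marrow cells need not have lost Ezh2 and Runx1. Total marrow was used from DKOITD mice, and WT marrow was first enriched on CD117 beads, which bind the KIT protein. The DKOITD marrow was leukaemic marrow. Cell preparation, leukaemia and genotype therefore cannot be told apart in any comparison given here. For Kit the preparation also selected on the gene under study. Ages are not given in the labels, and neither the floxed deletions nor the internal tandem duplication (ITD) of Flt3 can be read from peak lists, so neither was checked.

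Class III receptors sit in the cell membrane, pair when their ligand binds and then phosphorylate each other and downstream adaptors. In marrow, FLT3 serves early lymphoid and dendritic progenitors, KIT serves stem cells, early progenitors and mast cells, and CSF1R serves monocytes and macrophages. The PDGF receptors act in stromal and other mesenchymal cells. Stromal cells also make much of the marrow's KIT ligand and CSF1, and an ITD lets FLT3 signal without its ligand.

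The H3K27ac libraries held 9435546 to 11458360 fragments after filtering in DKOITD mice and 6515614 to 7072997 in WT mice. The H3K27me3 libraries held 3343831 to 6411696 fragments in DKOITD mice and 2766339 to 3994483 in WT mice. Peaks of H3K27ac covered 7.03 to 23.8 Mb of the genome in DKOITD mice and 16.8 to 29.7 Mb in WT mice. Peaks of H3K27me3 covered 5.20, 3.17 and 5.24 Mb in DKOITD48, DKOITD53e and DKOITD83, 30.3 and 40.5 Mb in DKOITD52 and DKOITD185, and 13.8 to 27.3 Mb in WT mice. A missing peak can therefore reflect the library as well as the gene. In bulk marrow, fewer cells that carry a mark and less mark per cell cannot be told apart.

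**Figure D1:**
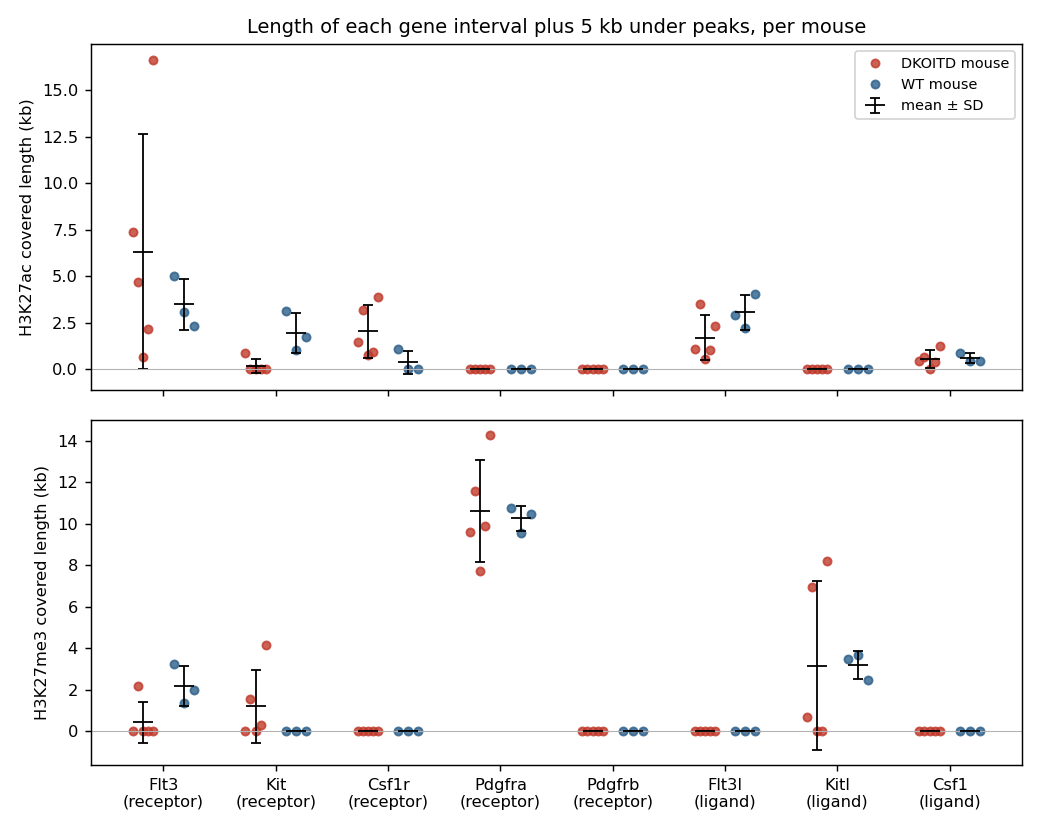
Length in kb of each gene interval plus 5 kb under H3K27ac peaks (top) and H3K27me3 peaks (bottom), with 1 point per mouse and bars for the mean and SD of 5 DKOITD mice (left of each pair) and 3 WT mice (right). H3K27ac at Kit was 0 to 0.844 kb in DKOITD mice and 1.01 to 3.13 kb in WT mice, and Pdgfra carried 7.71 to 14.3 kb of H3K27me3 in all 8 mice.

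The members fell into distinct states, which the plot of covered length by mouse shows. Flt3 and Flt3l carried at least 200 bp of H3K27ac in all 8 mice, as did 36.9% of all protein-coding genes. In DKOITD mice other than DKOITD52, the Flt3l length lay only in the flank, at the neighbouring gene Rpl13a. Pdgfra carried H3K27me3 in all 8 mice, as did 5.95% of all genes. Pdgfrb carried neither mark in any mouse, Kitl and Pdgfra carried no H3K27ac, and Csf1r, Flt3l and Csf1 carried no H3K27me3. No member was marked in every mouse of a group and in no mouse of the other. For H3K27ac, 0.361% of all genes were marked in every DKOITD and no WT mouse and 0.599% in the opposite case, and for H3K27me3 0.0183% and 0.507%. No H3K27ac in any mouse was found at 38.4% of all genes, and no H3K27me3 at 61.6%.

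Flt3 (mm10 chromosome 5, 147330741 to 147400489, read toward lower coordinates) had H3K27ac in all 8 mice, with a wide spread among the DKOITD mice. Peaks covered 7.38 kb in DKOITD48, 4.70 kb in DKOITD52, 0.649 kb in DKOITD53e, 2.17 kb in DKOITD83 and 16.6 kb in DKOITD185. In WT1, WT2 and WT3 they covered 5.02, 3.09 and 2.32 kb. DKOITD mice lay both below and above all WT mice, so the groups overlapped, with means of 6.31 ± 6.32 kb in DKOITD (SD, n = 5) and 3.47 ± 1.39 kb in WT (SD, n = 3). The difference on the log2(covered bp + 200) scale, the scale of every log2 difference given here, was 0.25 with a standard error (SE) of 0.85. Its adjusted p was 0.855 by limma, a moderated linear model fitted over all genes with Benjamini-Hochberg adjustment. The 95% confidence interval ran from −1.67 to 2.17. Without DKOITD185 the difference was −0.25.

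The peaks along Flt3 merged into 12 H3K27ac sites, of which 5 were held by 3 or more mice. Distances are given in kb from the gene start into the gene, with negative values in front of it. The site over the start, from −0.679 to 2.10 kb, had 1456, 1095, 649, 1046 and 2776 bp in DKOITD48, DKOITD52, DKOITD53e, DKOITD83 and DKOITD185, against 631, 505 and 0 bp in WT1, WT2 and WT3. The lowest DKOITD value, 649 bp in DKOITD53e, lay close to the highest WT value, 631 bp in WT1, and no share of all genes was computed for single sites. A long non-coding RNA gene, Gm26597, overlaps this site, so the peak cannot be given to Flt3 alone.

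Further stretches of Flt3 differed in which mice held them. A site from 37.0 to 39.0 kb had 416, 903, 0, 447 and 2065 bp in DKOITD48, DKOITD52, DKOITD53e, DKOITD83 and DKOITD185, and 0 bp in all 3 WT mice. A site from 58.0 to 60.6 kb had 1686, 1238, 0, 361 and 1717 bp in the same order of DKOITD mice, against 2314, 2581 and 1677 bp in WT1, WT2 and WT3. The first was therefore held by 4 of 5 DKOITD and 0 of 3 WT mice, and the second by 4 of 5 DKOITD and 3 of 3 WT mice. Single sites were given no test. DKOITD53e, which lacked both, had the smallest H3K27ac territory of the 8 mice, 7.03 Mb.

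Peak strength at Flt3 also differed between mice. The start peak had a −log10 q, the authors' own value for the peak, of 6.20 to 13.6 in the 5 DKOITD mice, and of 1.29 and 1.68 in WT1 and WT2. Counting only peaks with a −log10 q of at least 5, Flt3 kept 3142, 1998, 649, 1046 and 7345 bp of H3K27ac in DKOITD48, DKOITD52, DKOITD53e, DKOITD83 and DKOITD185, and 0 bp in every WT mouse. With those peaks the log2 difference was 3.50 with an adjusted p of 0.0663 by limma, short of the threshold of 0.05. With the strongest 8825 H3K27ac peaks of each library instead, WT1 and WT2 kept 2314 and 2581 bp, and the log2 difference was 1.29 with an adjusted p of 0.397. The WT H3K27ac libraries were all shallower than the DKOITD libraries, and the part of depth in this difference was not tested.

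H3K27me3 at Flt3 formed 1 site over the gene start, from −1.33 to 1.92 kb. It covered 2.17 kb in DKOITD52 and 0 kb in the other 4 DKOITD mice, against 3.25, 1.36 and 1.99 kb in WT1, WT2 and WT3. The mark was thus held by 1 of 5 DKOITD and 3 of 3 WT mice. The log2 difference was −2.80 with an SE of 1.12, an unadjusted p of 0.0232 and an adjusted p of 0.533 by limma. For H3K27me3 over gene intervals, 0% of 6080 genes tested were called at an adjusted p under 0.05, and 7.29% had an unadjusted p under 0.05. DKOITD48, DKOITD53e and DKOITD83 had small H3K27me3 territories. DKOITD185 had the largest of the 8 mice and no H3K27me3 peak at Flt3. The part of territory in the Flt3 values was not tested.

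Both marks lay on the same bases of Flt3 in 3 mice, over 1095 bp in DKOITD52, 631 bp in WT1 and 206 bp in WT2. In the other 4 DKOITD mice and in WT3 the shared length was 0 bp. As background, acetylation and methylation of this residue exclude each other on a histone tail, and bulk peak lists do not resolve single tails, alleles or cells.

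**Figure D2:**
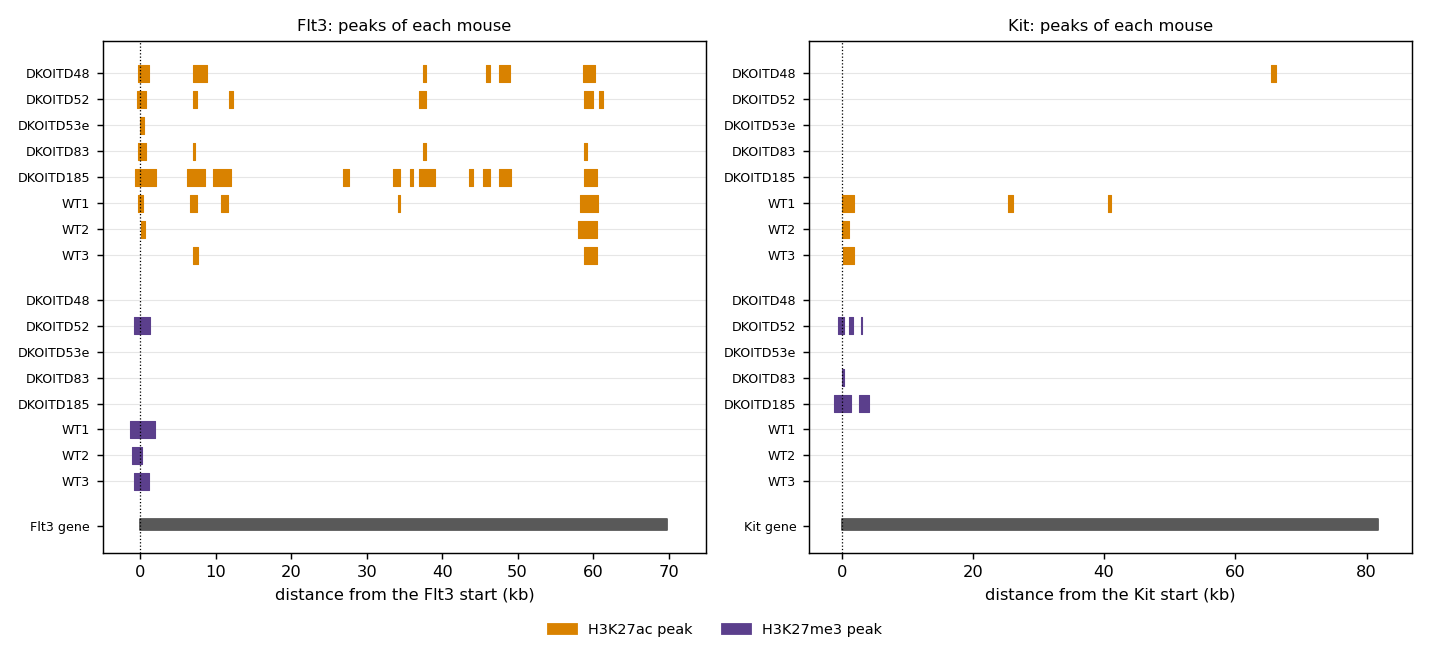
Peaks of each mouse along Flt3 (left) and Kit (right), with distance in kb from the gene start on the horizontal axis, 1 row per mouse, H3K27ac rows above H3K27me3 rows and DKOITD rows above WT rows. At the Flt3 start 5 of 5 DKOITD and 2 of 3 WT mice had H3K27ac and 1 of 5 DKOITD and 3 of 3 WT mice had H3K27me3, and at the Kit start 0 of 5 DKOITD and 3 of 3 WT mice had H3K27ac.

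Kit (chromosome 5, 75574987 to 75656722, read toward higher coordinates) had less H3K27ac in DKOITD marrow. Peaks covered 0.844 kb in DKOITD48 and 0 kb in the other 4 DKOITD mice, against 3.13, 1.01 and 1.72 kb in WT1, WT2 and WT3. The groups did not overlap, with means of 0.169 ± 0.377 kb in DKOITD (SD, n = 5) and 1.96 ± 1.08 kb in WT (SD, n = 3). Groups that did not overlap in this direction were found at 1852 genes, 8.46% of all 21883. Only 13529 genes had any H3K27ac peak in these mice, and the others cannot meet that rule. The log2 difference was −2.83 with an SE of 0.65 and an adjusted p of 0.0488 by limma. Genes called lower in DKOITD made up 3.02% of the 11863 tested, and genes called higher 0.809%.

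The call at Kit was at the edge of the threshold. The adjusted p by limma was 0.0574 to 0.268 when any mouse other than DKOITD48 was left out and 0.0161 without DKOITD48. With covered length scaled to each library's territory it was 0.0529. When the strongest 8825 H3K27ac peaks of each library were used, only DKOITD48 with 844 bp and WT2 with 1013 bp kept a peak at Kit, the log2 difference was −0.39 and the adjusted p was 0.759.

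The lower coverage lay at the Kit start, in a site from 0.059 to 1.90 kb inside the gene. It had 0 bp in all 5 DKOITD mice, against 1769, 1013 and 1722 bp in WT1, WT2 and WT3. The single DKOITD48 peak lay elsewhere, from 65.4 to 66.2 kb, where no WT mouse had one. WT1 alone had further peaks, of 874 bp at 25.3 kb and 490 bp at 40.6 kb.

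H3K27me3 at Kit went the other way in some DKOITD mice. It covered 0, 1.58, 0, 0.324 and 4.14 kb in DKOITD48, DKOITD52, DKOITD53e, DKOITD83 and DKOITD185, and 0 kb in all 3 WT mice. The main site, from −1.15 to 1.68 kb, overlaps the stretch acetylated in WT mice, and no mouse carried both marks at Kit. The log2 difference was 1.80 with an SE of 1.05 and an adjusted p of 0.533 by limma, so it did not pass. DKOITD52 and DKOITD185, with the longest stretches, also had the largest H3K27me3 territories of the 8 mice.

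**Figure D3:**
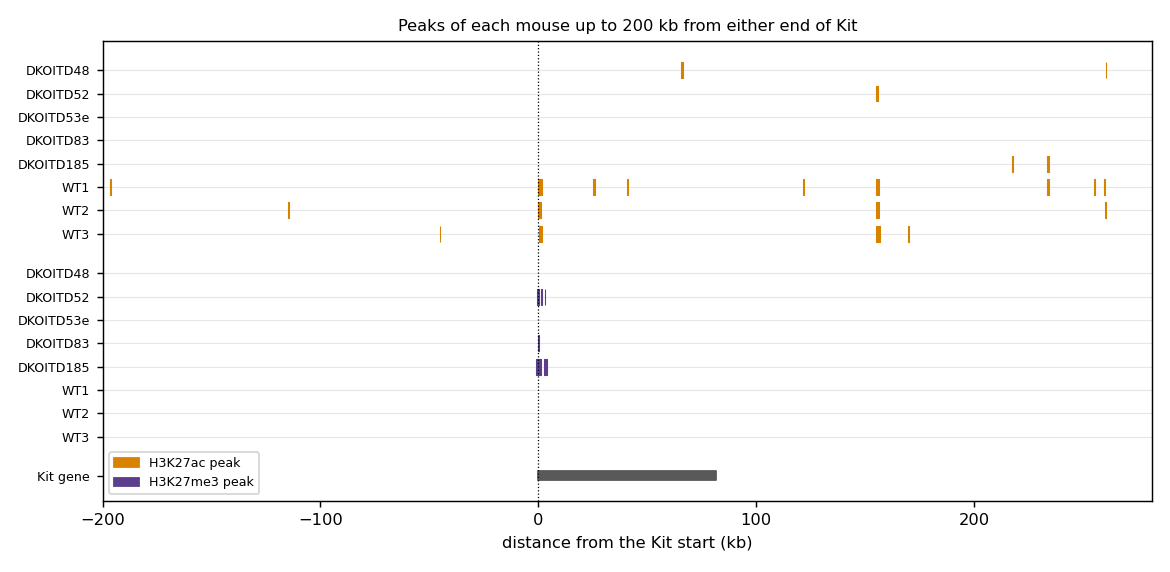
Peaks of each mouse up to 200 kb from either end of Kit, with distance in kb from the Kit start on the horizontal axis, H3K27ac rows above H3K27me3 rows and DKOITD rows above WT rows. Peaks narrower than the line width are drawn at that width. The site near 155 kb was present in 1 of 5 DKOITD and 3 of 3 WT mice, and no mouse had distal H3K27me3.

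Around Kit, distal H3K27ac was also lower in DKOITD marrow. Outside the gene plus 5 kb and within 200 kb, peaks covered 0.294, 0.921, 0, 0 and 1.34 kb in DKOITD48, DKOITD52, DKOITD53e, DKOITD83 and DKOITD185, against 4.14, 2.19 and 2.17 kb in WT1, WT2 and WT3. Every DKOITD value was below every WT value, with means of 0.512 ± 0.598 kb in DKOITD (SD, n = 5) and 2.83 ± 1.13 kb in WT (SD, n = 3). The difference of −2.32 kb had a two-sided exact permutation p of 0.0357, the smallest that the 56 assignments allow. In the limma fit of distal length over all genes, Kit had a log2 difference of −2.51 with an SE of 0.71 and an adjusted p of 0.101, and 1.44% of 17978 genes tested were called lower and 0.0612% higher. Distal groups that did not overlap, with DKOITD lower, were found at 11.2% of all genes, a base that includes genes without distal H3K27ac in any mouse. With peaks of −log10 q of at least 5 the difference was −0.489 kb, with an exact p of 0.75.

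The distal peaks formed 10 sites, of which 7 were held by 1 mouse each. The most shared lay from 155 to 157 kb past the Kit start (chromosome 5, 75730090 to 75731799). It had 921 bp in DKOITD52 and 0 bp in the other 4 DKOITD mice, against 1468, 1319 and 1612 bp in WT1, WT2 and WT3. The other site held by 3 mice, at 260 to 261 kb, had 294 bp in DKOITD48 and 0 bp in the other 4 DKOITD mice, against 325, 611 and 0 bp in the WT mice. Within 200 kb of Kit the annotation holds no other protein-coding gene, only the small nuclear RNA gene Gm24502 and the long non-coding RNA gene Gm32558. Distal H3K27me3 around Kit was 0 kb in all 8 mice.

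Csf1r (chromosome 18, 61105572 to 61131139, read toward higher coordinates) had H3K27ac mainly in DKOITD marrow. Peaks covered 1.44, 3.20, 0.737, 0.907 and 3.86 kb in DKOITD48, DKOITD52, DKOITD53e, DKOITD83 and DKOITD185, against 1.08, 0 and 0 kb in WT1, WT2 and WT3. WT1 exceeded DKOITD53e and DKOITD83, so the groups overlapped, with means of 2.03 ± 1.41 kb in DKOITD (SD, n = 5) and 0.359 ± 0.621 kb in WT (SD, n = 3). Csf1r had a log2 difference of 2.34 with an SE of 0.74, an unadjusted p of 0.0114 and an adjusted p of 0.127 by limma. An unadjusted p under 0.05 was found at 21.5% of the genes tested.

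The overlap at Csf1r came from a single peak in WT1 at the far end of the gene. It began at 25.4 kb and ran into the neighbouring gene Hmgxb3. In the first part of Csf1r, from 0.255 to 3.48 kb, peaks covered 1442, 3197, 737, 907 and 3158 bp in the DKOITD mice in the order above and 0 bp in all 3 WT mice. That stretch was singled out from these same peaks. Single sites were given no test, and no share of all genes was computed for them. With no flank around the gene, the log2 difference was 2.91 with an adjusted p of 0.0157 by limma, a setting that called 0.991% of genes higher. With the flank kept and length scaled to territory it was 2.99 with an adjusted p of 0.00438, and 3.25% of genes were called higher. With the strongest 8825 peaks of each library it was 1.75 with an adjusted p of 0.259, and with peaks of −log10 q of at least 5 it was 0.81 with an adjusted p of 0.644. Leaving out each mouse gave an adjusted p of 0.073 to 0.371. Csf1r was thus called in only those 2 of the 17 limma alternatives.

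Pdgfra (chromosome 5, 75151322 to 75198206, read toward higher coordinates) lay under a broad H3K27me3 domain in both groups. H3K27me3 peaks covered 9.58, 11.6, 7.71, 9.88 and 14.3 kb in DKOITD48, DKOITD52, DKOITD53e, DKOITD83 and DKOITD185, against 10.8, 9.57 and 10.5 kb in WT1, WT2 and WT3. Means were 10.6 ± 2.47 kb in DKOITD (SD, n = 5) and 10.3 ± 0.620 kb in WT (SD, n = 3), and the DKOITD range enclosed the WT range. The DKOITD minus WT log2 difference was 0.019 with an SE of 0.39, a 95% confidence interval of −0.80 to 0.84 and an adjusted p of 0.978 by limma. DKOITD53e, with 1891 H3K27me3 peaks in all, still carried the domain, and its Pdgfra peak was the 50th longest of them.

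In every mouse the Pdgfra domain covered all 4001 bp of the window of 2 kb on either side of the gene start. Its reach ran at most from −9.15 to 5.84 kb. Within the gene plus 5 kb, the domain alone covered 7708 to 10839 bp in DKOITD mice and 9567 to 10762 bp in WT mice. Counting only peaks with a −log10 q of at least 5, it remained in DKOITD48, DKOITD52 and DKOITD185 and in 0 of 3 WT mice. At that cutoff those DKOITD libraries held 375, 2015 and 1543 H3K27me3 peaks in all. DKOITD53e and DKOITD83 held 184 and 187, and WT mice 95 to 814. The median log2 difference of all genes tested was then 0.91, so the pattern is not particular to Pdgfra. Separate short peaks farther into the gene were found only in DKOITD52 and DKOITD185, where they added 865 and 3422 bp. Pdgfra and Kit lie on the same chromosome with 377 kb between them, and their H3K27me3 differed: all 5 DKOITD and 3 of 3 WT mice at Pdgfra, 3 of 5 DKOITD and 0 of 3 WT mice at Kit.

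Pdgfrb (chromosome 18, 61045127 to 61085067) had no peak of either mark over the gene plus 5 kb in any of the 16 libraries. Csf1r starts 20.5 kb past its end, so the distal windows of these genes overlap.

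**Figure D4:**
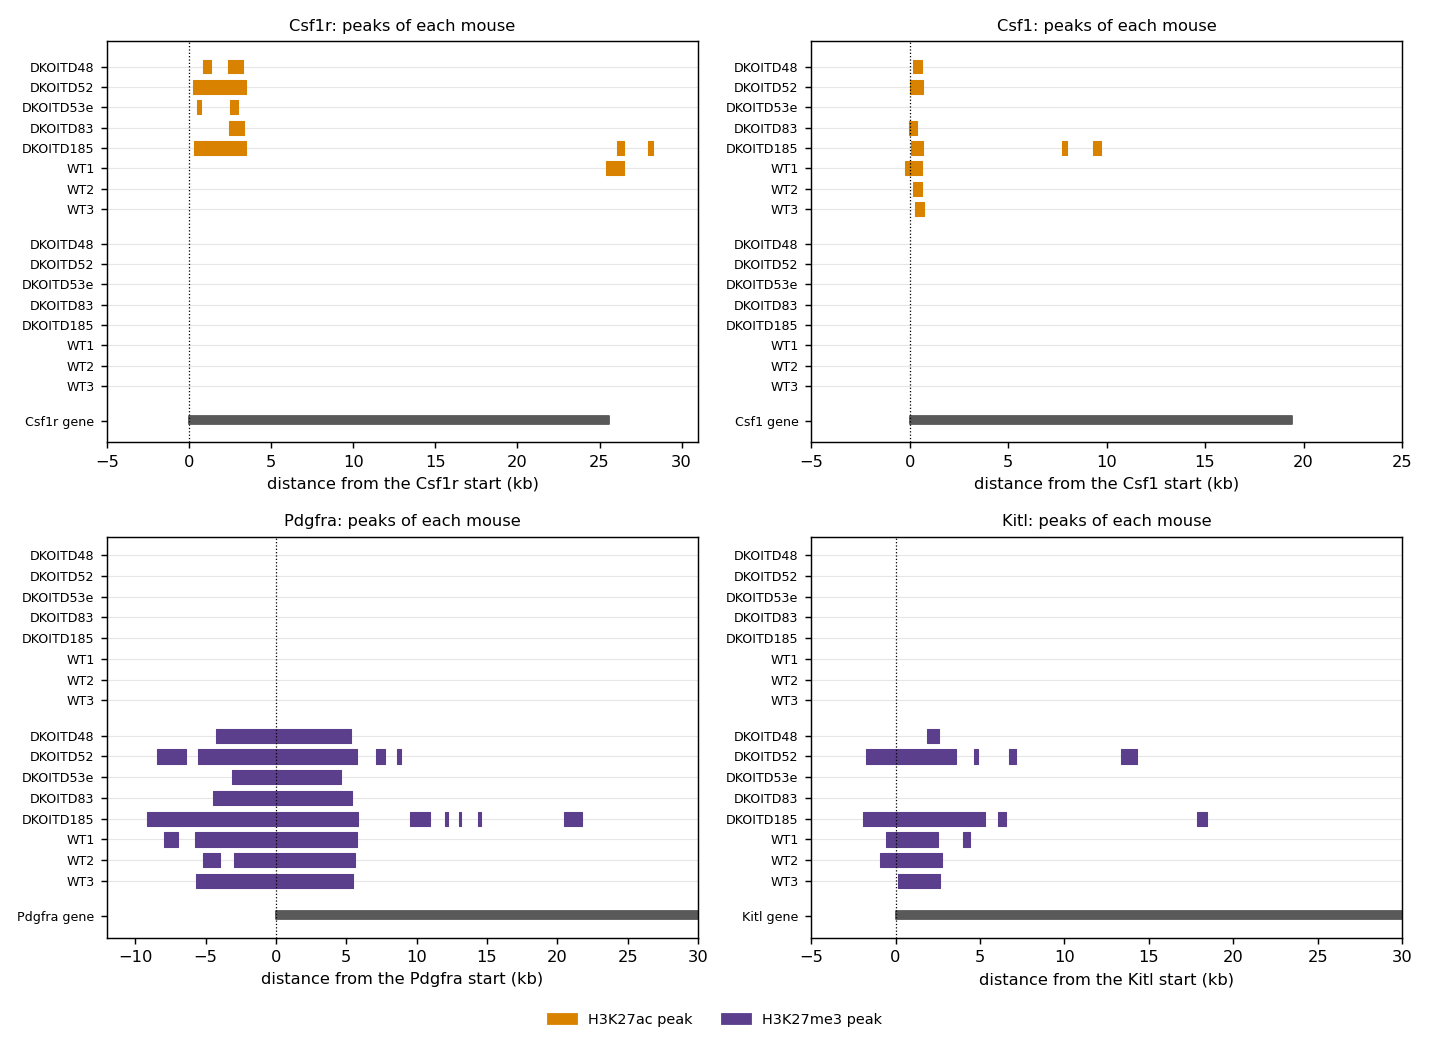
Peaks of each mouse at Csf1r and Csf1 (top) and Pdgfra and Kitl (bottom), with distance in kb from each gene start on the horizontal axis, H3K27ac rows above H3K27me3 rows and DKOITD rows above WT rows. In the first 3.48 kb of Csf1r 5 of 5 DKOITD and 0 of 3 WT mice had H3K27ac, and the Pdgfra start lay under H3K27me3 in all 8 mice. Single sites were given no test.

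Among the ligand genes, Flt3l (chromosome 7, 45131183 to 45136490, read toward lower coordinates) had 1.07, 3.52, 0.532, 1.03 and 2.31 kb of H3K27ac in DKOITD48, DKOITD52, DKOITD53e, DKOITD83 and DKOITD185, against 2.91, 2.19 and 4.06 kb in WT1, WT2 and WT3. Flt3l had a log2 difference of −0.98 with an SE of 0.51 and an adjusted p of 0.285 by limma. Most of that length lay 6.47 to 10.4 kb past the Flt3l start, a stretch at the ribosomal protein gene Rpl13a that all 8 mice held. The Flt3l start itself, from −0.014 to 0.541 kb, had 380 bp in DKOITD52 and 0 bp in the other 4 DKOITD mice, against 496, 387 and 499 bp in the WT mice. The start peak was thus held by 1 of 5 DKOITD mice, at nearly the length seen in WT2, and by 3 of 3 WT mice.

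Kitl (chromosome 10, 100015615 to 100100416, read toward higher coordinates), which encodes stem cell factor, carried H3K27me3 and no H3K27ac. H3K27me3 covered 0.712, 6.94, 0, 0 and 8.21 kb in DKOITD48, DKOITD52, DKOITD53e, DKOITD83 and DKOITD185, against 3.48, 3.69 and 2.45 kb in WT1, WT2 and WT3. DKOITD52 and DKOITD185, the mice with the largest H3K27me3 territories, lay above all WT mice, and the other 3 DKOITD mice below them. Kitl had a log2 difference of −1.52 with an SE of 1.39 and an adjusted p of 0.553 by limma. It was 1.20 when DKOITD52 and DKOITD185 were the only DKOITD mice.

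Csf1 (chromosome 3, 107741048 to 107760469, read toward lower coordinates), which encodes macrophage colony-stimulating factor, had a short H3K27ac peak at its start. Over the gene plus 5 kb, H3K27ac covered 0.434, 0.649, 0, 0.389 and 1.26 kb in DKOITD48, DKOITD52, DKOITD53e, DKOITD83 and DKOITD185, against 0.887, 0.442 and 0.460 kb in WT1, WT2 and WT3. Csf1 had a log2 difference of −0.31 with an SE of 0.60 and an adjusted p of 0.744 by limma. Its sign changed without DKOITD53e, to 0.095, so no direction is given. With the strongest 8825 H3K27ac peaks of each library it was −1.95 with an adjusted p of 0.0153 by limma, since 0 of 5 DKOITD and 3 of 3 WT mice then kept a peak. That setting called 4.37% of the genes tested lower and 3.06% higher.

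**Figure D5:**
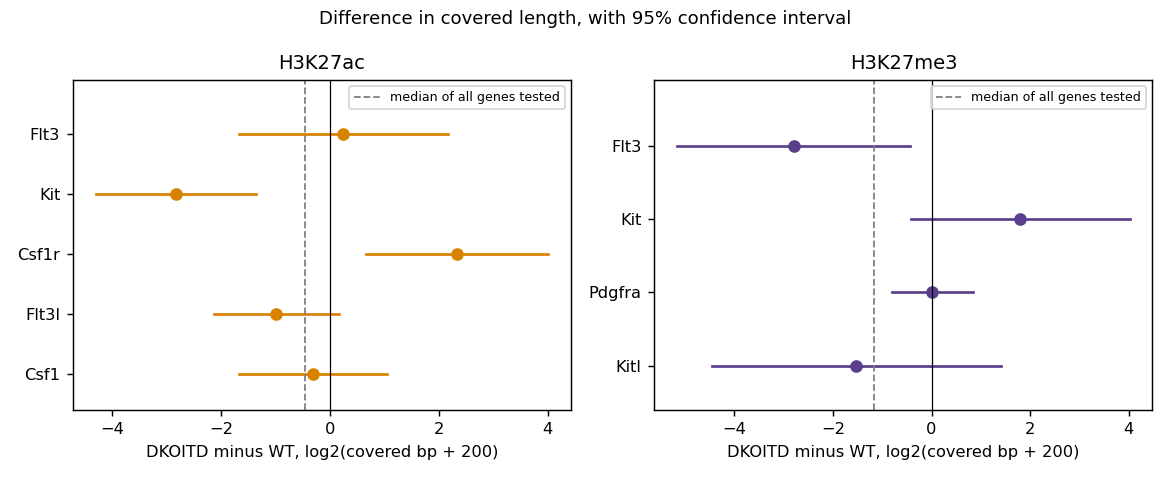
DKOITD minus WT difference in log2(covered bp + 200) for the members that passed the filter on low coverage, with 95% confidence intervals from limma, for H3K27ac (left) and H3K27me3 (right). The dashed line marks the median of all genes tested, −0.46 for H3K27ac and −1.16 for H3K27me3. Kit had the lowest H3K27ac difference, −2.83, and Csf1r the highest, 2.34.

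Of the 8 members, 5 passed the filter of a mean of 200 bp over the mice for H3K27ac and 4 for H3K27me3, and the plot of log2 differences shows those. Kit was the 1 member called for H3K27ac, where 3.02% of all genes tested were called lower and 0.809% higher. For that mark 2 members, Kit and Csf1r, had an unadjusted p under 0.05 by limma, as did 21.5% of genes tested. For H3K27me3 limma called 0 members and 0% of genes tested. There 1 member, Flt3, had an unadjusted p under 0.05, as did 7.29% of genes tested. The medians of all genes tested lay below 0, at −0.46 for H3K27ac and −1.16 for H3K27me3. Csf1r, Flt3 and Csf1 thus lay above the H3K27ac median and Kit and Flt3l below it. For H3K27me3 Kit and Pdgfra lay above the median and Flt3 and Kitl below it.

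Distal H3K27ac within 200 kb was compared for the other members in the same limma fit as for Kit. Limma called 0 of the 7 members that passed the filter, and 3 of them, Kit, Csf1 and Flt3, had an unadjusted p under 0.05, as did 19.3% of the genes tested. Around Csf1 it covered 3.30 ± 1.55 kb in DKOITD (SD, n = 5) and 11.6 ± 5.31 kb in WT (SD, n = 3), with a log2 difference of −1.77 and an adjusted p of 0.0858. Around Flt3 it covered 2.63 ± 1.64 kb in DKOITD (SD, n = 5) and 7.54 ± 3.27 kb in WT (SD, n = 3), with a log2 difference of −1.51 and an adjusted p of 0.140. The median over all genes tested was −0.64. Without DKOITD185, Csf1, Flt3 and Kit were all called lower by limma, with adjusted p of 0.0227, 0.0322 and 0.0212, but 7.71% of all genes tested were then called lower as well. For distal H3K27me3 limma called 0 of 7 members, and 0 had an unadjusted p under 0.05, against 5.28% of 16307 genes tested.

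Genes of the pathway beyond the members were read against all genes tested, of which 3.02% were called lower and 0.809% higher for H3K27ac and 21.5% had an unadjusted p under 0.05. Of 27 adaptors and positive effectors of these receptors, 26 were tested and limma called 0, with an unadjusted p under 0.05 at 2 lower and 1 higher, and a median log2 difference of −0.45. Of 16 ubiquitin ligases, phosphatases and adaptors that restrain the receptors, 14 were tested and limma called 0, with a single gene in each direction at an unadjusted p under 0.05 and a median of −0.71. Of 5 other ligands of the same receptors, 1 was tested, and of 3 VEGF receptor genes, 2 were tested. None of these was called, and 0 had an unadjusted p under 0.05. In lists of this length, 0 calls is close to the share over all genes. For H3K27me3 limma called 0 genes in each of these lists, as it did over all 6080 genes tested. Of the 6 adaptors tested for that mark, 2 had an unadjusted p under 0.05, both lower in DKOITD, against 7.29% of all genes.

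H3K27ac was also summed over marker genes of the cells that use these receptors. Over 10 markers of Kit-expressing stem and progenitor cells, summed H3K27ac was 1.27 to 7.76 kb in DKOITD mice and 13.2 to 25.4 kb in WT mice, with Gata1 at 0 in all 8. Limma called 2 of the 7 tested lower, and 5 of 7 had an unadjusted p under 0.05, all lower in DKOITD, against 3.02% and 21.5% of all genes. Tal1, a transcription factor of stem and erythroid cells, had 0.0748 ± 0.167 kb in DKOITD (SD, n = 5) and 3.46 ± 0.295 kb in WT (SD, n = 3), with an adjusted p of 0.00261. Angpt1, an angiopoietin of stem cells, had 0 kb in every DKOITD mouse and 1.45 ± 0.996 kb in WT (SD, n = 3), with an adjusted p of 0.0233. The part of progenitor number in the Kit result was not tested.

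For mast cells, 6 of 8 markers, Cpa3, Mcpt8, Fcer1a, Ms4a2, Tpsb2 and Cma1, were at 0 in all 8 mice, and the summed H3K27ac was 0 to 1.92 kb in DKOITD mice and 4.30 to 9.09 kb in WT mice. That sum came only from the remaining markers, of which 1 was also in the progenitor sum above, so it is not particular to mast cells. Only 1 mast cell marker was tested, and limma did not call it. For monocytes and macrophages, without Csf1r, the sum over 9 markers was 7.46 to 26.1 kb in DKOITD mice and 5.77 to 11.4 kb in WT mice. Of the 7 tested, 1 was lower and 2 were higher in DKOITD at an unadjusted p under 0.05, and limma called 1 of them higher, Klf4, a transcription factor of monocytes, with 4.08 ± 0.606 kb in DKOITD (SD, n = 5), 0.927 ± 0.0904 kb in WT (SD, n = 3) and an adjusted p of 0.00261. The part of monocyte number in the Csf1r values was not tested.

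For dendritic cells, without Flt3, the sum over 9 markers was 9.58 to 39.4 kb in DKOITD mice and 9.88 to 20.7 kb in WT mice, so the groups overlapped. H2-Ab1, a class II antigen presentation gene, was the 1 marker of 8 tested that limma called, higher in DKOITD, with 6.09 ± 1.15 kb in DKOITD (SD, n = 5), 0.440 ± 0.403 kb in WT (SD, n = 3) and an adjusted p of 0.00604. Stromal markers without the members summed to 0 to 0.804 kb in DKOITD mice and 0 to 1.63 kb in WT mice, and Cxcl12, Lepr, Col3a1 and Foxc1 were at 0 in all 8. Pdgfra, Pdgfrb and Kitl, known for roles in stroma, had no H3K27ac peak in any mouse. Among erythroid markers limma called 1 of 6 tested, Car2, and among B-lineage markers 2 of 6, Igll1 and Vpreb1, all lower in DKOITD, against 3.02% of all genes. It called 0 of 2 T-lineage markers and 0 of 1 stromal marker tested, although all 3 of those had an unadjusted p under 0.05 and a lower value in DKOITD, against 21.5% of all genes in either direction.

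The genes whose pattern over all 16 libraries was most like that of Kit were Pik3c2b, Inhba, Mreg, Slco4c1 and S100a8. Their root mean square differences from Kit in log2(covered bp + 200) were 0.677, 0.718, 0.762, 0.788 and 0.806. The genes most like Flt3 were Lmna, Chn2, Prkch, Hip1 and Psmd8, at 0.548, 0.804, 0.806, 0.838 and 0.844. Lmna had 4.55 kb of H3K27ac on average in DKOITD and 3.03 kb in WT, and 0.356 kb of H3K27me3 in DKOITD and 3.14 kb in WT. Flt3 and Kit themselves were 3.06 apart on this measure, which puts Flt3 at place 21175 in the order of likeness to Kit. In the order of likeness to Flt3, Kit was at place 11430. The measure also follows the amount of coverage, since Pdgfrb, without a peak of either mark, was at place 9502 in likeness to Kit.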

How the data were processed

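Per the submitters' processing notes, Bowtie2 2.2.5 and MACS2 2.0.10 were used with the mm10 build. The caller named in the file headers is MACS 2.0.10.20131216 in broad mode, run by the authors on each library. All WT libraries were set against the WT1 input and all DKOITD libraries against the DKOITD48 input. The headers name a q cutoff of 0.05, but the lowest deposited −log10 q of each list was 1.00 to 1.07. Some peaks counted here thus have a q above 0.05. Per the labels' protocols, each sample of 5000000 cells had 10 min in 1% formaldehyde, chromatin fragments were 200 to 500 bp, and the fly chromatin that was added (1 fly cell to 4 sample cells) was not used, so no absolute level is known. Per the file headers, the deposited pileup is the fragment signal (coverage) of a peak, the deposited fold enrichment is its ratio to local background, and p-value and q-value are both deposited on a −log10 scale. These are the authors' values for each peak and were used to describe, filter or rank peaks. Where a −log10 q is compared between mice, or 1 cutoff is applied to all libraries, differences in depth and input between the groups enter the comparison.

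Within each library, peaks that overlap were joined, and the covered bp of each gene interval plus 5 kb, and of the next stretch up to 200 kb, were summed. Genes were placed with the RefSeq annotation of GRCm38.p6, which gives no strand, so reading directions are textbook knowledge. Genes with a mean of at least 200 bp were fitted with limma 3.58.1 (R 4.3.3, eBayes with trend) on log2(covered bp + 200), 5 DKOITD against 3 WT libraries per mark, with Benjamini-Hochberg adjustment and a threshold of 0.05. The procedure was tested on simulated data. Distal length around Kit had an exact permutation test. Sites are overlapping peaks of a mark merged over the mice.

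The 8 members are always named, and of the marker and pathway lists the genes that limma called. The 5 genes most like Kit and Flt3 have the smallest root mean square difference over 16 libraries. The members, lists and tests were chosen with earlier results of these data known. Alternatives were other flanks, pseudocounts, filters, peak sets, scalings and sets of mice. Nothing in the labels says how the mice were housed or processed together, and p-values measure the spread between these mice. The 10 human libraries and the sequences of the genes were not used here. The value of 1 gene of the marker lists is not reported here.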

Additional observations from a re-analysis of the deposited data

Results flagged for a closer look

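In 10 groups of 5 DKOITD values tested for a single distant mouse, 2 stood out. Chance flags about 1 in 20 groups of continuous values, but in both of these 4 of 5 values were 0, so any called peak stands out and that rate does not apply. H3K27me3 at Flt3 covered 2.17 kb in DKOITD52 and 0 kb in the other 4 DKOITD mice. H3K27ac at Kit covered 0.844 kb in DKOITD48 and 0 kb in the other 4 DKOITD mice. The DKOITD52 stretch lay over the Flt3 start, where all 3 WT mice had H3K27me3, whereas the DKOITD48 peak lay 65.4 to 66.2 kb into Kit, where no WT mouse had H3K27ac.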

How the results depend on the processing

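Of 234 recomputed values, 179 kept their direction and their side of the threshold or stayed close. That total is no measure of stability. It includes 13 values of distal H3K27me3 around Kit, which no mouse had, and 17 counts of H3K27me3 calls that stayed at 0. At Kit, H3K27ac coverage kept its side of the threshold in 6 alternatives and lost it in 11. The count of members called for H3K27ac stayed close in 6 and moved in 11. The cause of the changes that follow was not tested unless the setting itself gives it. H3K27ac calls among the members, 1 in the main fit, became 2 with no flank (Kit and Csf1r), and 0 with a pseudocount of 50 bp, with no filter and with peaks of −log10 q of at least 5, and ranged from 0 to 1 when each mouse was left out. The count stayed at 1 with equal peak numbers and when scaled to territory, but the member called was then Csf1 and Csf1r in turn, not Kit. With equal peak numbers 442 genes were called lower and 309 higher over all genes. The distal H3K27ac difference around Kit was −0.489 kb with peaks of −log10 q of at least 5, −0.431 kb with equal peak numbers, −1.70 kb with DKOITD52 and DKOITD185 as the only DKOITD mice, and −2.66 to −1.67 kb when each mouse was left out. The exact p was then 0.75, 0.75, 0.2 and 0.0571 to 0.0952. The last 3 values are the smallest that groups of those sizes allow, so they say nothing about stability. Distal calls, 0 in the main fit, became 1 with equal peak numbers (Csf1), 3 when scaled to territory (Csf1, Kit and Pdgfrb), 1 with a window of 100 kb (Csf1) and 0 to 3 when each mouse was left out. Over all genes, distal H3K27ac calls were 258 lower and 11 higher in the main fit, 1060 and 245 with equal peak numbers, 1338 and 1546 when scaled to territory, 332 and 37 with a window of 100 kb, and 1378 and 17 without DKOITD185. Members marked in all mice of a group and none of the other, 0 in the main count, became 1 with a minimum of 1000 bp (Kit), 1 with peaks of −log10 q of at least 5 (Flt3), 1 with equal peak numbers (Csf1) and 1 with no flank (Csf1r), the last chosen after seeing the data. The share of all genes was computed for the main count only, so these other counts cannot be read against it. Bases of Flt3 under both marks, found in 3 mice, were found in 0 with peaks of −log10 q of at least 5 and 0 with equal peak numbers. The sign turned for Flt3 H3K27ac without DKOITD185 (−0.25, with −0.25 to 0.82 over the mice left out), for Csf1 H3K27ac when scaled to territory (0.061), with DKOITD52 and DKOITD185 as the only DKOITD mice (0.53) and without DKOITD53e (0.095, with −0.62 to 0.095 over the mice left out), for Pdgfra H3K27me3 with equal peak numbers (−0.028) and when a mouse was left out (−0.093 to 0.12), and for Kitl H3K27me3 with DKOITD52 and DKOITD185 as the only DKOITD mice (1.20). Over all genes, H3K27ac calls were 358 lower and 96 higher in DKOITD in the main fit, 412 and 384 when scaled to territory, which moved the all-gene median to 0.18, and 45 and 36 with peaks of −log10 q of at least 5. Leaving out a mouse gave 71 to 605 lower and 31 to 113 higher. No paired analysis was possible because DKOITD and WT mice share no replicate numbers.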
